A study of Mus musculus with 12 samples.

Results

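A set of 6 genes of the mineralizing bone matrix was followed through 12 libraries: Spp1, Ibsp, Dmp1 and Mepe, which belong to the SIBLING family, and the osteocalcin genes Bglap and Bglap2. These members were taken from the expression table by their symbols and make up 6 of its 22063 genes. The cells were mesenchymal cells grown from the mandibular condyle of newborn Plagl1 fl/fl mice and used at passage 2. All received an adenovirus at a multiplicity of infection of 100, either HBAD-CRE-EGFP, which carries the Cre recombinase, or the control HBAD-EGFP, which carries EGFP without Cre. The OI-AdV-CRE-EGFP and OI-AdV-EGFP groups were collected at day 4 of osteogenic induction with dexamethasone (100 nM), ascorbic acid (50 μg/mL) and β-glycerophosphate (5 mM), and the AdV-CRE-EGFP and AdV-EGFP groups at day 0, with 3 libraries in each of the 4 groups. No day 4 library without osteogenic medium was analysed, so the medium and 4 more days of culture cannot be told apart. The study asked how loss of the zinc finger transcription factor Plagl1 alters osteoblastic differentiation of these cells.

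SIBLING proteins (small integrin-binding ligand, N-linked glycoproteins) are acidic, heavily phosphorylated proteins that osteoblasts, osteocytes and odontoblasts secrete into the matrix, where they bind calcium and, through an Arg-Gly-Asp motif, integrins. Osteopontin (Spp1) restrains crystal growth and is also made by many cells outside bone, bone sialoprotein (Ibsp) favours the first deposition of mineral, and dentin matrix protein 1 (Dmp1) and matrix extracellular phosphoglycoprotein (Mepe) are best known from osteocytes. Osteocalcin, a small protein that is carboxylated with vitamin K, is a late marker of osteoblasts.

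The targeted gene was looked at first. Plagl1 stood at 384.6 ± 18.0 CPM (counts per 1000000 counts of the TMM-scaled library; SD, n = 3) in libraries labelled OI-AdV-CRE-EGFP, against 391.4 ± 11.2 CPM in OI-AdV-EGFP. At day 0 it stood at 588.8 ± 6.46 CPM in those labelled AdV-CRE-EGFP, against 400.8 ± 22.0 CPM in AdV-EGFP. The log2 fold changes were −0.03 (adjusted p = 0.67, edgeR) after and 0.55 (adjusted p = 1.8e-10, edgeR) before induction, so Plagl1 RNA was not lower in either Cre-labelled group. Counts over the whole gene cannot show whether its floxed part was deleted. The paper reported less PLAGL1 protein by Western blot in induced cells given the Cre virus. The groups are called by their labels below. Actb, the reference gene of the study's qPCR, stood at 1504.0 ± 35.5 CPM in OI-AdV-CRE-EGFP, 1300.9 ± 11.5 CPM in OI-AdV-EGFP, 2457.9 ± 59.8 CPM in AdV-CRE-EGFP and 2397.1 ± 62.2 CPM in AdV-EGFP. Library totals ran from 15316989 to 18052040 counts. All 9 markers fixed for condylar mesenchyme, among them Prrx1, Col1a1 and Postn, stood above 1 CPM in each group. The labels do not say whether the 3 libraries within a group are separate cultures, and the p-values therefore measure a spread between libraries that may be technical only. The RNA is from bulk cultures, in which fewer cells of a type and less RNA per cell cannot be told apart.

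The 4 SIBLING genes lie in 1 cluster on chromosome 5 (GRCm39), all protein-coding and on the plus strand. Dmp1 spans chr5:104345340-104361974, Ibsp chr5:104447037-104459338, Mepe chr5:104473195-104486477 and Spp1 chr5:104582165-104589235, and the cluster from Dmp1 to Spp1 covers 243.9 kb. The osteocalcin genes lie on the minus strand of chromosome 3, Bglap2 at chr3:88285043-88286060 and Bglap at chr3:88290808-88291771, with 4747 bases between them. RefSeq upstream sequences (mouse build GRCm38.p6) were held for 5 of the 6 members, with more than 1 start for Dmp1 and Spp1. Those of Spp1, Ibsp and Mepe are shown because these 3 neighbours took different courses in the libraries. Each is the 250 bases before a RefSeq start site, on the plus strand, placed on GRCm39 by an exact match: Spp1 at chr5:104582727-104582976, Ibsp at chr5:104446903-104447152 and Mepe at chr5:104472945-104473194. Capitals mark ACCACA or its reverse complement TGTGGT, the core that RUNX factors bind, the family of the osteoblast regulator Runx2.
Spp1 upstream: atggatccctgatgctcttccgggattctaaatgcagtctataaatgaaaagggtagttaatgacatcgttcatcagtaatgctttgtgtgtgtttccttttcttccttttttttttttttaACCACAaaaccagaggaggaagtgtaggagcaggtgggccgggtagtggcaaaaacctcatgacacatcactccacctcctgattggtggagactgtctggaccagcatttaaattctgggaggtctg
Ibsp upstream: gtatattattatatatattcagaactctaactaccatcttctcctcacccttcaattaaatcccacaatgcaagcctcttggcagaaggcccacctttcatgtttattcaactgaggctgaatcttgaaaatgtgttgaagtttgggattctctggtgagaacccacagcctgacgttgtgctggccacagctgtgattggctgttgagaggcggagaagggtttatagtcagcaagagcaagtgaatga
Mepe upstream: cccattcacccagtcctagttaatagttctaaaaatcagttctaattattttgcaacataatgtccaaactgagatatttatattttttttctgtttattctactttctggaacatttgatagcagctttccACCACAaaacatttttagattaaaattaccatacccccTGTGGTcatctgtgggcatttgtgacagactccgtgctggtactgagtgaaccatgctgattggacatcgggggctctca

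The core stood once before this start of Spp1, beginning 128 bases ahead of the start site, and at 2 places before Mepe, beginning 118 and 80 bases ahead of it. It was also found before Bglap, at 132 bases, and before 1 of the starts of Dmp1, at 164 bases, but not in the window of Ibsp or at the other starts of Dmp1 and Spp1. Of 32851 upstream sequences of the same length in the table, 4614, or 14.0%, hold it on either strand. A match of 6 letters is a description of the sequence and no evidence of binding.

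Bglap and Bglap2 are near-copies, and their coding sequences are shown because the likeness bears on every count given for them. Both are 285 bases long without the stop codon in the GENCODE vM39 annotation, 98.6% identical, and the 4 bases that differ are in capitals.
Bglap coding: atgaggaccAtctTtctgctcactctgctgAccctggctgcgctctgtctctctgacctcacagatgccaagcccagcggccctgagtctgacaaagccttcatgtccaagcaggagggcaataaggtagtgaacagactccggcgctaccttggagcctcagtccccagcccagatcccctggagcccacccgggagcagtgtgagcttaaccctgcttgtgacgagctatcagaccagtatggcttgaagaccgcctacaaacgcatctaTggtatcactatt
Bglap2 coding: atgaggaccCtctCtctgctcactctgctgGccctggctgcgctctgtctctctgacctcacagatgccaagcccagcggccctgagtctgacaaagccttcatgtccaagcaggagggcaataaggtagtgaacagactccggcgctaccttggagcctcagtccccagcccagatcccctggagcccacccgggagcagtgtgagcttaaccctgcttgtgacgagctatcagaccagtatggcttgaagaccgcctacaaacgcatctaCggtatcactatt

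The deposited values of the pair were fractional: only 1 of the 12 Bglap values was whole within 0.02, whereas the sum of Bglap and Bglap2 was whole within 0.02 in all 12 libraries. Reads that match both genes therefore appear to have been shared out between them, and Bglap made up 4.70% to 19.2% of the sum across libraries. The sum is the firmer measure of osteocalcin RNA, and it is given beside the single genes below.

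At the level of the whole set, induction and the Cre label moved different members in different directions. Calls were made in edgeR at an adjusted p under 0.05 with an at least 2-fold change. Mepe did not pass the filter on low counts, so 5 of the 6 members were tested. Bglap and Bglap2 share reads, so the 5 are not independent genes in any count or median given below. With induction in the Cre-labelled cells, OI-AdV-CRE-EGFP against AdV-CRE-EGFP, 1 of the 5 was called higher and 2 lower, where 20.7% of all 13670 tested genes were called, 12% higher and 8.62% lower. In cells with the control virus, OI-AdV-EGFP against AdV-EGFP, 3 of the 5 were called, all higher, where 25.9% of all genes were called, 15.1% higher and 10.8% lower. With Cre after induction, OI-AdV-CRE-EGFP against OI-AdV-EGFP, 4 of the 5 were called and all 4 were lower, where 5.07% of all genes were called, 2.46% higher and 2.61% lower. With Cre before induction, AdV-CRE-EGFP against AdV-EGFP, none of the 5 was called by edgeR, where 3.16% of all genes were, 2.6% higher and 0.556% lower. Of these 5, Spp1 and Bglap2 passed the adjusted p with a change under 2-fold, the same 2 had an unadjusted p under 0.05, and DESeq2 called none either. The median log2 fold change of the 5 was 0.94 with induction in the Cre-labelled cells and 2.95 in the control cells, −1.47 with Cre after and −0.20 with Cre before induction, while the medians over all genes lay between −0.01 and 0.05.

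**Figure D1:**
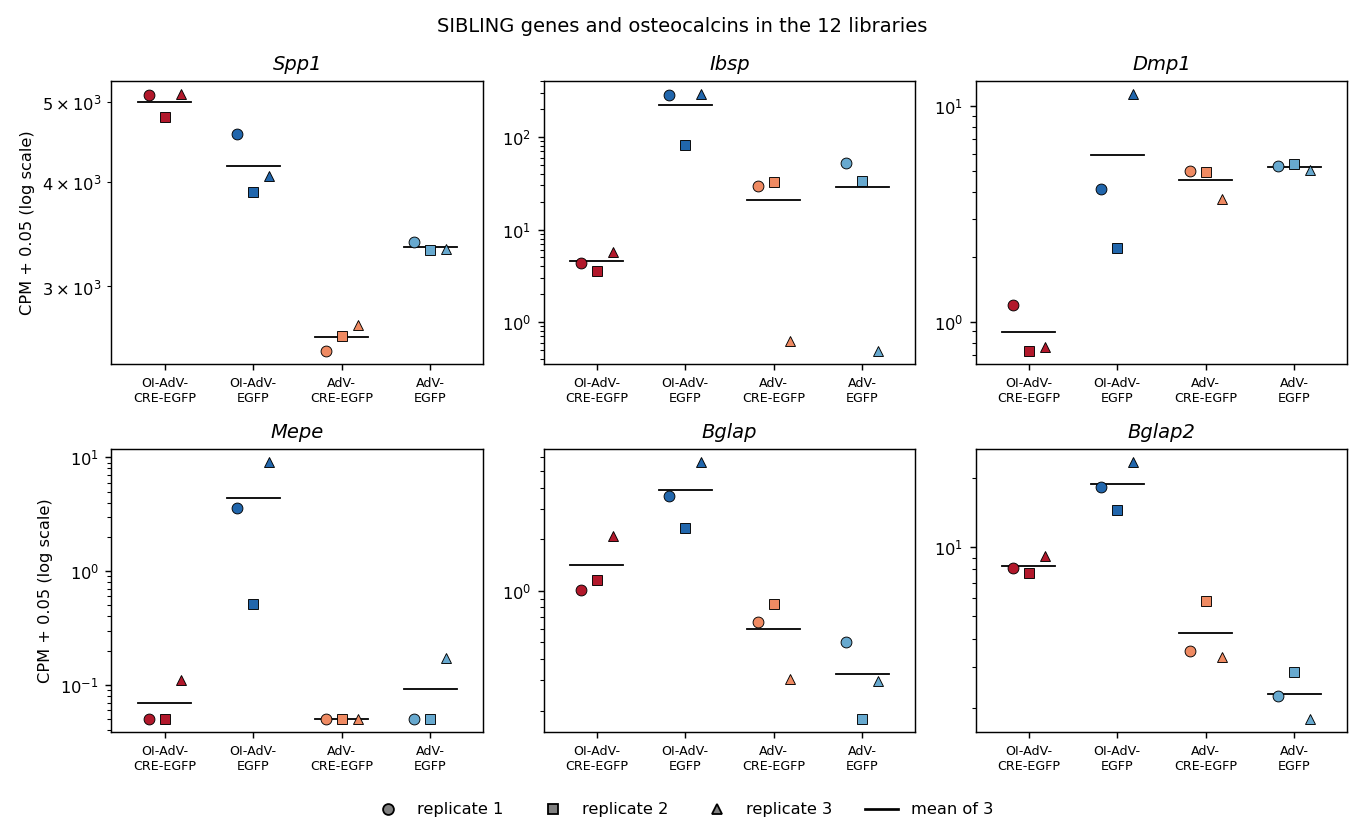
CPM + 0.05 on a log scale for the 6 members in the 12 libraries, by group, with 1 symbol per replicate number and a line at the mean of 3. Spp1 is highest in OI-AdV-CRE-EGFP and Ibsp, Mepe, Bglap and Bglap2 in OI-AdV-EGFP, whose Dmp1 libraries overlap those of AdV-EGFP, and Ibsp is far lower in replicate 3 than in replicates 1 and 2 at day 0 under both viruses.

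Spp1 was by far the most abundant member. Per length, it stood at 3521.8 ± 127.9 FPKM (fragments per kilobase of transcript and per 1000000 mapped; SD, n = 3) in OI-AdV-CRE-EGFP, 3005.1 ± 248.0 FPKM in OI-AdV-EGFP, 1809.4 ± 60.8 FPKM in AdV-CRE-EGFP and 2392.3 ± 33.8 FPKM in AdV-EGFP. By mean FPKM it ranked 11, 12, 18 and 12 among all genes of the table in these groups and made up 94.9% to 99.4% of the summed FPKM of the 6 members. By the mean, the next in FPKM was Bglap2 in OI-AdV-CRE-EGFP and Ibsp in the remaining groups. Mepe was last in all groups except OI-AdV-EGFP, where Dmp1 was below it by the mean.

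Spp1 counted 5094.1, 4792.5 and 5109.2 CPM in the 3 OI-AdV-CRE-EGFP libraries, against 4574.8, 3900.0 and 4076.2 CPM in OI-AdV-EGFP. At day 0 it counted 2507.4, 2616.3 and 2693.4 CPM in AdV-CRE-EGFP, against 3394.7, 3315.6 and 3325.1 CPM in AdV-EGFP. No pair of neighbouring groups overlapped, in the order OI-AdV-CRE-EGFP, OI-AdV-EGFP, AdV-EGFP and AdV-CRE-EGFP. With induction, Spp1 had a log2 fold change of 0.94 ± 0.04 (SE; adjusted p = 9.7e-16, edgeR) in the Cre-labelled cells and 0.32 ± 0.04 (adjusted p = 3.2e-07) in the control cells. Both passed the adjusted p and neither reached 2-fold. The Cre-labelled cells had more Spp1 after induction, by 0.26 ± 0.04 on the log2 scale (adjusted p = 3.4e-05, edgeR), and less of it before, with a log2 difference of −0.36 ± 0.04 (adjusted p = 4.7e-07). The test of this difference, the interaction of Cre and induction, gave 0.62 ± 0.06 (adjusted p = 3.8e-08, edgeR). Under this test, called at an adjusted p under 0.05 alone, 22.8% of all genes were called. The share called positive was 10.7% and that called negative 12.1%. All 5 members were among them, Spp1 positive and the other 4 negative.

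Macrophages and osteoclasts also make osteopontin, and a list of 15 of their markers was followed for that reason. Their summed level was 1487.7 to 1544.4 CPM in OI-AdV-CRE-EGFP, against 980.9 to 1011.4 CPM in OI-AdV-EGFP, and 880.3 to 956.3 CPM in AdV-CRE-EGFP, against 438.3 to 457.2 CPM in AdV-EGFP. By the mean of 3 libraries, 11 of the 15 were higher and 3 lower in OI-AdV-CRE-EGFP than in OI-AdV-EGFP, and 12 were higher and 2 lower in AdV-CRE-EGFP than in AdV-EGFP. Most of the sum came from Ctsk, cathepsin K, which fibroblasts can express too, and Lyz2, lysozyme. Ctsk averaged 848.4 CPM in OI-AdV-CRE-EGFP, against 392.0 CPM in OI-AdV-EGFP, and 562.0 CPM in AdV-CRE-EGFP, against 156.7 CPM in AdV-EGFP. Lyz2 averaged 405.1 CPM in OI-AdV-CRE-EGFP, against 380.8 CPM in OI-AdV-EGFP, and 234.0 CPM in AdV-CRE-EGFP, against 206.5 CPM in AdV-EGFP. Of the defining markers, Csf1r, the receptor for the macrophage growth factor, averaged 22.7 CPM in OI-AdV-CRE-EGFP, against 18.7 CPM in OI-AdV-EGFP, and only Dcstamp, which osteoclasts need to fuse, was at 0 in every library. A list of 6 adipocyte markers summed to 318.1 to 361.4 CPM in OI-AdV-CRE-EGFP, against 131.7 to 143.5 CPM in OI-AdV-EGFP, and to 28.8 to 32.1 CPM in AdV-CRE-EGFP, against 9.32 to 10.9 CPM in AdV-EGFP. Most of these sums came from Fabp4 and Pparg. By the mean, 4 of the 6 were higher and 2 lower with Cre after induction, and 3 were higher and 2 lower before. The macrophage and adipocyte sums were thus higher with Cre at both times. So were the sums of the endothelial, skeletal muscle, mural and osteocyte marker lists. By the mean, 2 of the 4 osteocyte markers were higher and 2 lower after induction, and 3 were higher and 0 lower before. Most of that sum was Pdpn, at 381.8 CPM in OI-AdV-CRE-EGFP, against 317.7 CPM in OI-AdV-EGFP. Phex went the other way, at 1.11 against 7.57 CPM. Of the 5 skeletal muscle markers, 3 were higher and 2 lower after, and 2 higher and 3 lower before induction. Spp1 was higher with Cre after and lower before induction. The part of any of these cell types in the level of Spp1 was not tested.

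Ibsp showed the largest difference of the 5 members tested. It counted 4.29, 3.51 and 5.66 CPM in OI-AdV-CRE-EGFP, against 285.3, 82.2 and 293.4 CPM in OI-AdV-EGFP. The groups were far apart, although replicate 2 of OI-AdV-EGFP was 3.57 times below the highest library of its group. This is a log2 fold change of −5.61 ± 0.71 (adjusted p = 7.2e-07, edgeR), and the call held under all 23 other settings. The 6 day 0 libraries were split in another way. In AdV-CRE-EGFP the 3 libraries counted 29.8, 32.4 and 0.578 CPM, against 52.2, 33.8 and 0.432 CPM in AdV-EGFP. In counts, replicate 3 held 9 reads in AdV-CRE-EGFP and 7 in AdV-EGFP, where the other 4 libraries held 490 to 809. Within AdV-CRE-EGFP, the SD of log2 CPM of Ibsp was 3.16, which ranked 2 of 13670 tested genes, and within AdV-EGFP it was 3.62, which ranked 1.

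With induction in the Cre-labelled cells Ibsp had a log2 fold change of −2.22 ± 0.91 (adjusted p = 0.033, edgeR), with libraries that overlapped, replicate 3 of AdV-CRE-EGFP being below all 3 OI-AdV-CRE-EGFP libraries. This call was lost with DESeq2, with robust dispersion estimates, with limma on FPKM and when AdV-CRE-EGFP replicate 1 (−1.85) or 2 (−1.78) or OI-AdV-CRE-EGFP replicate 1 (−2.18), 2 (−2.07) or 3 (−2.42) was left out. In the control cells Ibsp rose, by 2.95 ± 0.54 (adjusted p = 3.3e-05, edgeR), and the OI-AdV-EGFP and AdV-EGFP libraries did not overlap. Without both day 0 libraries numbered 3, an alternative chosen after the data were seen, both calls were kept, at −2.78 in the Cre-labelled and 2.34 in the control cells. Before induction, the difference between AdV-CRE-EGFP and AdV-EGFP was −0.45 ± 0.66 (adjusted p = 0.66, edgeR), and it turned positive without AdV-EGFP replicate 1 (0.29) or without AdV-CRE-EGFP replicate 3 (0.10). The interaction was −5.17 ± 1.03 (adjusted p = 0.0006, edgeR), and it was not called with robust dispersion estimates, another setting chosen after the data were seen, or with limma on FPKM.

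The gene whose pattern over the 12 libraries was most like that of Ibsp was Alpl, tissue-nonspecific alkaline phosphatase, which frees phosphate for mineral (Pearson r = 0.915 of log2 CPM, a description over libraries that share their groups). Alpl counted 2.22 to 2.50 CPM in OI-AdV-CRE-EGFP, against 11 to 14.7 CPM in OI-AdV-EGFP. It too was lowest in replicate 3 at day 0, with 0.642 CPM against a highest library of 2.90 CPM in AdV-CRE-EGFP, and 0.865 CPM against 3.81 CPM in AdV-EGFP. Alpl was picked for its likeness to Ibsp over these same libraries, so the choice itself favoured a low replicate 3. Sp7, osterix, the transcription factor that commits cells to the osteoblast lineage, was also lowest in replicate 3 of both day 0 groups, at 0.45 CPM in AdV-CRE-EGFP and 1.91 CPM in AdV-EGFP. The share of all genes that were lowest in replicate 3 of both day 0 groups was not counted. Runx2, which acts ahead of Sp7, varied little, between 48.0 and 50.3 CPM in AdV-CRE-EGFP and between 44.4 and 46.9 CPM in AdV-EGFP. The 4 next genes by likeness to Ibsp were Scn1a, Frem1, Irak4 and Anks6, with r of 0.875 to 0.909.

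**Figure D2:**
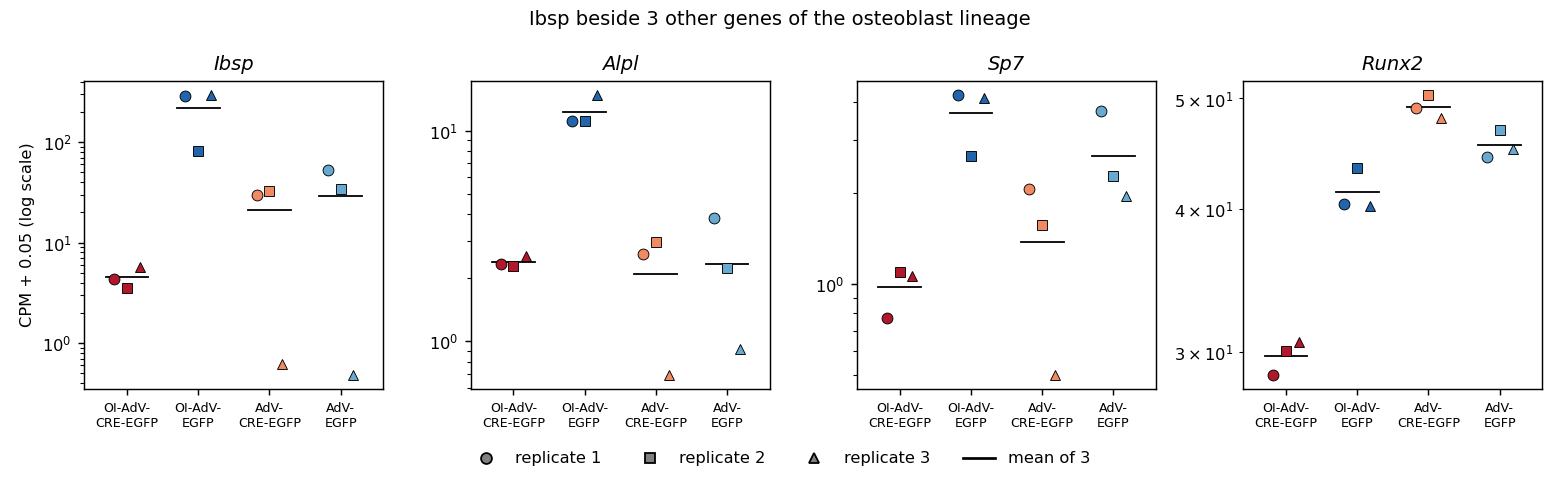
CPM + 0.05 on a log scale for Ibsp, Alpl, Sp7 and Runx2 in the 12 libraries, with 1 symbol per replicate number and a line at the mean of 3. The triangles of replicate 3 are the lowest of their group at day 0 for Ibsp, Alpl and Sp7, and all 4 genes are lower in OI-AdV-CRE-EGFP than in OI-AdV-EGFP.

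Dmp1 was scarce, and its main difference was between the Cre-labelled and the control cells after induction. It counted 1.15, 0.678 and 0.716 CPM in OI-AdV-CRE-EGFP, against 4.05, 2.15 and 11.3 CPM in OI-AdV-EGFP. The 3 OI-AdV-CRE-EGFP libraries, with 11 to 19 reads, were all below the 3 OI-AdV-EGFP libraries, which held 37 to 207 reads and spread 5.24-fold. The log2 fold change was −2.78 ± 0.44 (adjusted p = 1.7e-05, edgeR), and −1.86 without OI-AdV-EGFP replicate 3, the highest library. At day 0, Dmp1 counted 4.93, 4.88 and 3.66 CPM in AdV-CRE-EGFP, against 5.23, 5.30 and 5.00 CPM in AdV-EGFP, a log2 difference of −0.20 ± 0.34 (adjusted p = 0.71, edgeR). Dmp1 thus fell with induction in the Cre-labelled cells, by a log2 fold change of −2.40 ± 0.46 (adjusted p = 6.5e-05, edgeR). In the control cells the value was 0.18 ± 0.33 (adjusted p = 0.62, edgeR), and it changed sign to −0.74 without OI-AdV-EGFP replicate 3. The interaction was −2.58 ± 0.58 (adjusted p = 0.0017, edgeR), −1.66 without that library, and not called with robust dispersion estimates or with limma on FPKM.

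Mepe was seen almost only in the induced control cells. It counted 0, 0 and 1 read in the OI-AdV-CRE-EGFP libraries, against 60, 8 and 167 reads in OI-AdV-EGFP, and 0, 0 and 0 reads in AdV-CRE-EGFP, against 0, 0 and 2 reads in AdV-EGFP. Every OI-AdV-EGFP library was above all 9 others, and among the 3 the highest held 19.5 times the CPM of the lowest. In CPM the means were 0.0199 in OI-AdV-CRE-EGFP and 4.36 ± 4.37 (SD, n = 3) in OI-AdV-EGFP. The exact permutation test of both CPM and FPKM gave p = 0.1 (two-sided), the smallest that 3 against 3 libraries allow, for Cre after induction and for induction in the control cells. By summed reads, Mepe was 0.00452 times as high in OI-AdV-CRE-EGFP as in OI-AdV-EGFP (95% exact interval 0.000114 to 0.0254, for counting error only) and 105.7 times as high in OI-AdV-EGFP as in AdV-EGFP (28.9 to 878.2). In the remaining comparisons both groups held at most 2 reads in all, too few for a ratio. Dspp, dentin sialophosphoprotein, the fifth SIBLING gene and the defining marker of odontoblasts, was at 0 in 11 libraries and at 1 read in the remaining 1.

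Within OI-AdV-EGFP the members had a similar order of libraries. The share of all genes with this order was not counted, and Bglap and Bglap2 share reads. Replicate 2 was the lowest library for all 6 members, and replicate 3 the highest for 5 of them, Spp1 being highest in replicate 1. The ratio of the highest to the lowest library was 1.17 for Spp1, 1.62 for Bglap2, 2.47 for Bglap, 3.57 for Ibsp, 5.24 for Dmp1 and 19.5 for Mepe. Col1a1, the main collagen chain of bone and of fibroblasts, was highest in replicate 2, at 6459.7 CPM, and lowest in replicate 1, at 5284.1 CPM. Sp7 and, narrowly, Alpl were also lowest in replicate 2, whereas Runx2 and Panx3 were lowest in replicate 3.

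The osteocalcin genes rose in the induced control cells and stood in between in the induced Cre-labelled cells. Bglap2 counted 8.09, 7.65 and 9.06 CPM in OI-AdV-CRE-EGFP, against 18.3, 14.5 and 23.5 CPM in OI-AdV-EGFP. At day 0 it counted 3.47, 5.80 and 3.28 CPM in AdV-CRE-EGFP, against 2.20, 2.81 and 1.73 CPM in AdV-EGFP. No neighbouring groups overlapped, in the order OI-AdV-EGFP, OI-AdV-CRE-EGFP, AdV-CRE-EGFP and AdV-EGFP. Bglap counted 0.966, 1.11 and 2.03 CPM in OI-AdV-CRE-EGFP, against 3.53, 2.27 and 5.60 CPM in OI-AdV-EGFP. At day 0 it counted 0.608, 0.791 and 0.257 CPM in AdV-CRE-EGFP, against 0.452, 0.128 and 0.247 CPM in AdV-EGFP, where the groups overlapped and 1 AdV-EGFP library held 2.16 reads. The sum of the pair averaged 9.64 ± 1.27 CPM in OI-AdV-CRE-EGFP, 22.6 ± 6.23 CPM in OI-AdV-EGFP, 4.73 ± 1.63 CPM in AdV-CRE-EGFP and 2.52 ± 0.49 CPM in AdV-EGFP (SD, n = 3 each).

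With induction in the Cre-labelled cells, the log2 fold change was 0.99 ± 0.20 for Bglap2 (adjusted p = 0.00014, edgeR), just under the 2-fold limit, 1.30 ± 0.47 for Bglap (adjusted p = 0.017) and 1.03 ± 0.21 for the sum (adjusted p = 0.00012). Here the call of Bglap was lost without AdV-CRE-EGFP replicate 3 (0.98), OI-AdV-CRE-EGFP replicate 3 (0.90) or both day 0 libraries numbered 3 (0.98), and with limma on FPKM. Bglap2 crossed the limit when any 1 of 6 libraries was left out, with values of 1.00 to 1.29. These were the 3 AdV-EGFP libraries, AdV-CRE-EGFP replicate 2 (1.29) and OI-AdV-CRE-EGFP replicates 1 (1.01) and 2 (1.04). In the control cells both genes were called higher and by more, Bglap2 by 3.06 ± 0.21 (adjusted p = 1.3e-12, edgeR) and Bglap by 3.76 ± 0.47 (adjusted p = 9.5e-08). The sum rose by 3.16 ± 0.21 (adjusted p = 1.3e-12, edgeR).

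With Cre after induction, both were called lower, Bglap2 by −1.18 ± 0.17 (adjusted p = 3e-06, edgeR) and Bglap by −1.47 ± 0.35 (adjusted p = 0.0015), and the sum gave −1.23 ± 0.17 (adjusted p = 2.6e-06). Without OI-AdV-EGFP replicate 3, the highest library, Bglap2 gave −0.99 and was not called, and Bglap gave −1.07. Before induction the log2 differences were 0.89 ± 0.26 for Bglap2 (adjusted p = 0.01, edgeR), 0.99 ± 0.64 for Bglap (adjusted p = 0.27) and 0.90 ± 0.27 for the sum (adjusted p = 0.012). None of these reached 2-fold, and Bglap2 did so without AdV-EGFP replicate 2 (1.07) or AdV-CRE-EGFP replicate 3 (1.01). The interaction was −2.08 ± 0.30 for Bglap2 (adjusted p = 1.5e-05, edgeR), −2.46 ± 0.73 for Bglap (adjusted p = 0.016) and −2.13 ± 0.32 for the sum (adjusted p = 1.6e-05). For Bglap it was not called without AdV-EGFP replicate 2 (−2.10) or AdV-CRE-EGFP replicate 2 (−2.12), or with limma on log2(FPKM + 0.1).

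**Figure D3:**
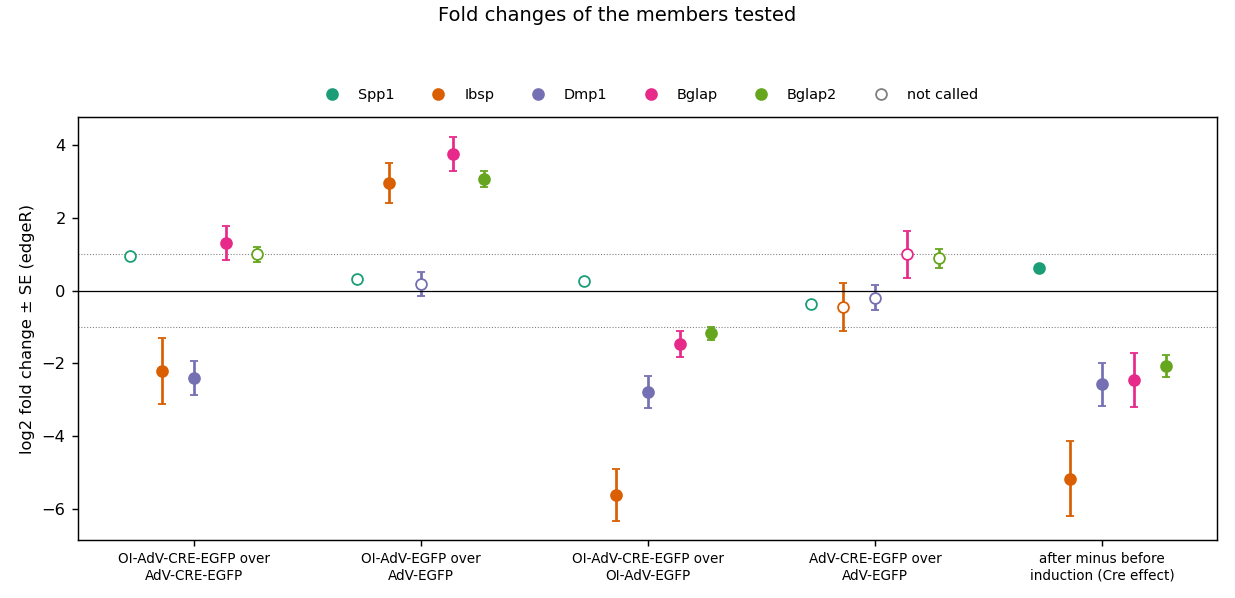
Log2 fold changes of the 5 members tested (points, edgeR) with their SE (bars) in the 4 pairwise comparisons and the interaction, where filled points were called and dotted lines mark 2-fold. Between OI-AdV-CRE-EGFP and OI-AdV-EGFP, Ibsp, Dmp1, Bglap and Bglap2 lie between −5.61 and −1.18 and Spp1 at 0.26.

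The members thus did not share 1 pattern. Over the 12 libraries, the Pearson r of log2 CPM was 0.945 between Bglap and Bglap2, which share reads, and 0.582 to 0.601 between Ibsp and the osteocalcins. For Spp1 it was 0.577 with Bglap, 0.59 with Bglap2, 0.0903 with Ibsp and −0.621 with Dmp1. For Dmp1 it was 0.419 with Ibsp, −0.11 with Bglap and −0.164 with Bglap2. These values describe 4 groups of 3 libraries and carry no test. The genes most like Spp1 were Stk32a, Lpin3, Rasa4, Adamts12 and Fhl1 (r = 0.969 to 0.978), and those most like Dmp1 were Aldh1a2, Il20rb, Sncaip, Stxbp4 and Nmral1 (r = 0.921 to 0.941). Those most like Bglap were Bmf, Alg12, Vamp8, Mrpl23 and Ebpl (r = 0.957 to 0.965). Those most like Bglap2 were Srgn, Ggt5, Mtus1, Sparcl1 and Etfa (r = 0.97 to 0.978).

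Neighbours on the chromosomes were followed to see how far along the clusters the differences reached. Of the 11 listed, 8 were tested. In OI-AdV-CRE-EGFP against OI-AdV-EGFP only 1 of them was called, where 5.07% of all genes were, and 1 call among 8 genes says little about the clusters. It was Sparcl1, which encodes a secreted matrix glycoprotein related to SPARC and lies on the far side of Dspp from Dmp1. It counted 48.7, 43.8 and 38.5 CPM in OI-AdV-CRE-EGFP, against 103.3, 107.7 and 112.8 CPM in OI-AdV-EGFP, a log2 fold change of −1.31 ± 0.07 (adjusted p = 4.2e-14, edgeR). Pkd2, a cation channel gene and the nearest neighbour of Spp1, had −0.13 ± 0.04 (adjusted p = 0.0079, edgeR), and the other 6 lay between −0.44 (Paqr6) and 0.31 (Nudt9). With induction in the control cells, 4 of the 8 were called higher, Sparcl1 (3.13), Hsd17b11 (1.54), Nudt9 (1.14) and Paqr6, and Pmf1 was called lower (−1.59). Of all genes, 15.1% were called higher and 10.8% lower in this comparison. Paqr6 counted 50, 49 and 61 reads in OI-AdV-EGFP, against 0, 1 and 0 in AdV-EGFP. It overlaps the third osteocalcin gene, Bglap3, on the opposite strand, and since no source used here says whether counting took account of the strand, reads of the 2 genes may not be told apart. Bglap3 itself summed to 22 reads in OI-AdV-CRE-EGFP, against 37.01 in OI-AdV-EGFP, and was not tested.

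**Figure D4:**
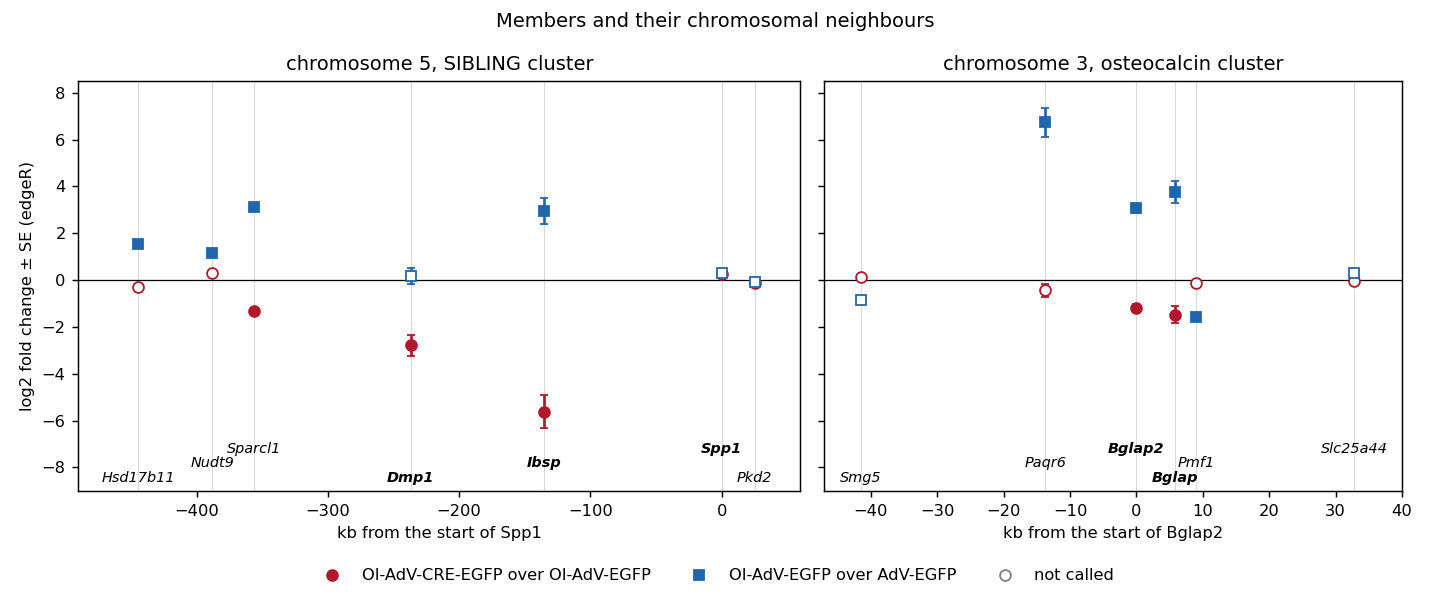
Log2 fold changes with SE (edgeR) of the members (bold) and the tested neighbours against the distance in kb from the start of Spp1 (chromosome 5) or Bglap2 (chromosome 3), where filled symbols were called. Circles set OI-AdV-CRE-EGFP against OI-AdV-EGFP, and squares set OI-AdV-EGFP against AdV-EGFP, and the Paqr6 square rests on a group with 1 read in all.

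The other genes of mineralization changed in part. Of a list of 19 mineralization and osteocyte genes, 16 were tested, and in OI-AdV-CRE-EGFP against OI-AdV-EGFP 3 were called lower and 1 higher, where 5.07% of all genes were called, with a list median of −0.09 against −0.01 over all genes. Those lower were Alpl (−2.39 ± 0.30, adjusted p = 4.8e-07, edgeR), Phex (−2.76 ± 0.23, adjusted p = 6.9e-10) and Omd, osteomodulin (−1.07 ± 0.07, adjusted p = 4.2e-12). Phex, an endopeptidase of osteoblasts and osteocytes that cleaves peptides of the SIBLING proteins, counted 1.09, 1.29 and 0.954 CPM in OI-AdV-CRE-EGFP, against 7.05, 5.87 and 9.79 CPM in OI-AdV-EGFP. The 1 called higher was Phospho1, a phosphatase of matrix vesicles, with 11.5 ± 2.40 CPM in OI-AdV-CRE-EGFP, against 4.40 ± 1.08 CPM in OI-AdV-EGFP (log2 fold change 1.38 ± 0.17, adjusted p = 2.8e-07, edgeR). Sost, the defining gene of mature osteocytes, averaged 0 CPM in OI-AdV-CRE-EGFP and 0.0544 CPM in OI-AdV-EGFP. With induction in the Cre-labelled cells, 3 were called higher and 7 lower (list median −0.62, against 0.02 over all genes, of which 20.7% were called). Those higher were Smpd3 (4.19), the sphingomyelinase that mineral formation needs, Omd (2.87) and Mgp (1.76), a carboxylated inhibitor of mineral, and Enpp1 (−1.65), which makes the mineral inhibitor pyrophosphate, was the lowest. In the control cells, 5 were called higher and 4 lower (list median −0.12, against 0.05 over all genes, of which 25.9% were called), with Omd (3.92), Smpd3 (3.78) and Alpl (2.43) the highest and Enpp1 (−2.53) the lowest. Phex was called in opposite directions with induction, at −1.59 ± 0.26 in the Cre-labelled cells and 1.33 ± 0.20 in the control cells, and the interaction was −2.91 ± 0.33 (adjusted p = 2.8e-07, edgeR). Before induction, only Phospho1 was called (1.54), where 3.16% of all genes were called.

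Of 18 transcription factors known to act on these genes, all tested, 1 was called lower and none higher in OI-AdV-CRE-EGFP against OI-AdV-EGFP, where 5.07% of all genes were called (list median −0.15, against −0.01 over all genes). It was Sp7, with 0.929 ± 0.178 CPM in OI-AdV-CRE-EGFP, against 3.62 ± 0.87 CPM in OI-AdV-EGFP (log2 fold change −1.96 ± 0.36, adjusted p = 9.8e-05, edgeR). Runx2 did not reach 2-fold, at 29.7 ± 1.03 CPM in OI-AdV-CRE-EGFP, against 41.3 ± 1.81 CPM in OI-AdV-EGFP. With induction in the Cre-labelled cells 2 were called higher and 3 lower, where 12% of all genes were called higher and 8.62% lower. Those higher were Vdr (1.92), the vitamin D receptor that drives Spp1 and, in humans and rats, osteocalcin, and Hey1 (1.43). In the control cells 4 were called higher and 2 lower, where 25.9% of all genes were called, among them Hey1 (1.93), Ets1 (−1.58), Cbfb (−1.43), the partner of RUNX proteins, and Vdr (1.42). Before induction, Vdr was called lower (−1.18) and Dlx3 higher (1.59), where 3.16% of all genes were called. After induction Vdr was lower with Cre as well, at 39.2 ± 1.6 CPM in OI-AdV-CRE-EGFP, against 63.2 ± 3.84 CPM in OI-AdV-EGFP. This change was under 2-fold (log2 fold change −0.69 ± 0.06, adjusted p = 1.8e-09, edgeR).

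Receptors and processing enzymes complete the pathway. Of 9 tested integrin subunits and other receptors of SIBLING proteins, 0 were called by edgeR with Cre after induction, where 5.07% of all genes were called, too small a share to read anything from 9 genes. DESeq2 called none, and 6 of the 9 had an unadjusted p under 0.05 with changes under 2-fold (list median 0.01). With induction in the Cre-labelled cells, 0 of the 9 were called higher and 3 lower. Of all genes, 12% were called higher and 8.62% lower there. In the control cells 1 was called higher and 2 lower, where the shares were 15.1% and 10.8%. Itgav and Cd44, through which cells bind osteopontin, were called lower in both. They had −1.34 and −1.32 in the Cre-labelled cells and −1.67 and −1.54 in the control cells. Itga8, another integrin subunit of the list, went the other way. It was called in the control cells (1.34), with 0.84 in the Cre-labelled cells, under 2-fold. Of 17 tested enzymes that phosphorylate, carboxylate, cleave or crosslink these proteins, 1 was called higher and 2 lower in OI-AdV-CRE-EGFP against OI-AdV-EGFP (list median near 0, with 5.07% of all genes called). They were Ctsk (1.11), Pcsk5 (−1.29), a proprotein convertase, and Phex, which stands in both lists. In the control cells, 6 of the 17 were called higher and 1 lower with induction (list median 0.28, with 25.9% of all genes called), led by Pcsk5 (3.40) and Acp5 (3.29), the acid phosphatase that dephosphorylates osteopontin. In the Cre-labelled cells 4 were called higher and 3 lower with induction, with 20.7% of all genes called. Pcsk5 (2.16) and Acp5 (1.80) were again among those higher. Fam20c, the kinase that phosphorylates SIBLING proteins in the secretory pathway, was not called in any of the 4 pairwise comparisons. With Cre it was nonetheless higher, by 0.62 before (adjusted p = 8.7e-08, edgeR) and 0.31 after induction (adjusted p = 0.00036), both under 2-fold. Its interaction was called, at −0.30 (adjusted p = 0.02, edgeR). Vkorc1, which recycles the vitamin K that carboxylation of osteocalcin consumes, was called higher with induction in both (1.58 in the Cre-labelled and 1.62 in the control cells).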

How the data were processed

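RNA was sequenced from 12 libraries of condylar mesenchymal cells, 3 in each of 4 groups. According to the submitters' processing notes and the methods, the authors used cutadapt for trimming, HISAT2 for alignment to GRCm39 and HTSeq for counting. The annotation release and strand setting are not stated in any source used. The deposited table holds estimated counts, of which 1646 to 1844 genes per library were not whole, and FPKM, which the authors computed from them. Counts were rounded to whole numbers before testing. Totals were 15316989 to 18052040 counts, and intervals cover counting error only.

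Genes were filtered with filterByExpr, scaled by TMM and tested by edgeR (version 4.0.16, R 4.3.3) with the quasi-likelihood test in 1 model of the 4 groups, with Benjamini-Hochberg adjustment over 13670 genes. Genes were called at an adjusted p under 0.05 where the change was 2-fold or more, or, for the interaction, at that p alone. CPM use TMM-scaled totals. Fold changes are given with their SE. The fit was tested on simulated data with known changes. Mepe, which did not pass the filter, was compared by an exact permutation test. Alternatives were DESeq2 (version 1.42.0) and its size factors, library totals, no filter, limma (version 3.58.1) on log2 of FPKM plus 1 or 0.1, the replicate block, only the groups compared and each library left out. Robust dispersion, the summed osteocalcin pair and both day 0 libraries numbered 3 left out were added after the data were seen.

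The members and the gene lists were chosen with earlier results of these data known. Genes named are the members, Plagl1, Actb, up to 4 called genes of largest change in each list and comparison, tested chromosomal neighbours and the 5 genes of highest Pearson r with each member. The r was taken on log2 CPM with a prior count of 2. Other genes, such as Runx2, Fam20c, Csf1r, Lyz2 and Sost, were named after their values were seen. Positions are from GENCODE vM39, upstream sequences from RefSeq.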

Additional observations from a re-analysis of the deposited data

Results flagged for a closer look

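In each of the 5 members tested, the effect of the Cre label differed between the induced and the day 0 cells by the interaction test of edgeR. The effect after induction minus the effect before it was 0.62 on the log2 scale for Spp1, −5.17 for Ibsp, −2.58 for Dmp1, −2.46 for Bglap and −2.08 for Bglap2, where 22.8% of all 13670 genes passed the same test. Spp1 was the only 1 of the 5 with a positive value. For Ibsp the value was −5.12 without both day 0 libraries numbered 3.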

How the results depend on the processing

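The members' values were recomputed under 23 other settings. Mepe was fitted in 12 of them and was called there with Cre after induction and with induction in the control cells. These calls rest on its reads in OI-AdV-EGFP. Where a filter was used, Mepe passed it only through that group, which is the high side of both comparisons. Its calls there were thus favoured by the filter and add no support. In those settings 6 members were tested, so the numbers of members called below are out of 5 or 6. The upper ends of the ranges with Cre after induction and with induction in the control cells include Mepe. Of 559 recomputed values of the 5 members tested, 517 kept their direction and side of the threshold, 27 fell below it, 10 passed it and 5 changed sign. Some settings left out a library outside the 2 groups compared, which hardly moves the value. The 517 thus include values that could hardly change. The number of members called ranged, leaving out 1 library at a time, from 3 to 5 with Cre after induction, 0 to 1 with Cre before, 1 to 4 with induction in the Cre-labelled cells, 3 to 4 in the control cells and 4 to 5 for the interaction. With limma on log2(FPKM + 1) it was 0 with induction in the Cre-labelled cells and 3 for the interaction, with log2(FPKM + 0.1) 2 for the interaction, and with robust dispersion 3. Values that changed sign were Ibsp with Cre before induction, at 0.29 without AdV-EGFP replicate 1 and 0.10 without AdV-CRE-EGFP replicate 3 (lowest −1.05), and Dmp1 with induction in the control cells, at −0.03 and −0.13 on the 2 FPKM scales and −0.74 without OI-AdV-EGFP replicate 3 (highest 0.57). On log2(FPKM + 0.1), Ibsp with induction in the control cells (4.20) and Bglap with Cre after induction (−1.46) were not called. Of 1173 recomputed values of 51 other results, 1161 kept their call. Sp7 and Pcsk5 lost theirs with Cre after induction on log2(FPKM + 1), at −0.75 each. Over all genes, that scale gave 239 calls against 693 with Cre after, 122 against 432 with Cre before, 1445 against 2825 with induction in the Cre-labelled and 2018 against 3541 in the control cells, and log2(FPKM + 0.1) gave 2071 against 3115 for the interaction. With the replicate block, 3, 3, 0, 4 and 5 members were called, as without it. Over all tested genes, same-numbered libraries did not deviate together (r −0.0515 to 0.0371 over 18 pairs). Such an r cannot show a pairing that touches few genes, and Ibsp was far lower in replicate 3 of both day 0 groups. Whether the numbers pair the libraries therefore stays unknown. Members with few reads, Mepe, Bglap and Dmp1, limit what could be detected.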
